A study of Mus musculus with 57 samples.

Results

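NANOG peaks at 4 h were compared with NANOG peaks at 8 h after induction of GATA6 in mouse embryonic stem cells. The comparison rests on 4 of the 57 samples of the series, 2 replicate peak lists for each time point, from CUT&RUN, in which an antibody directs a nuclease to a protein's sites on chromatin and the released fragments are sequenced. A region was taken as reproducible where the merged peaks of a time point held a peak of both replicates. By this rule there were 6910 regions at 4 h and 474 at 8 h. Of the 4 h regions, 440 overlapped an 8 h region by at least 1 bp and are called kept, and 6470 did not and are called lost. Of the 8 h regions, 34 had no 4 h region and are called gained.

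The cells were KH2 mouse embryonic stem cells, labelled as of C57BL/6 background, with a doxycycline-inducible GATA6 and DsRed2 transgene (TRE:GATA6-DSREd2). Both groups carried the transgene, and both were in serum medium with LIF and doxycycline, for 4 h or for 8 h. The 0 h group had been in 2i medium with LIF without doxycycline, so values at 0 h differ from later ones in medium as well as in induction. The control for peak calling was a single 48 h library in which rabbit anti-rabbit antibody took the place of a TF antibody. The sources used here do not say whether the 2 replicates of a time point were separate cultures, so each spread given below is that between these samples.

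NANOG is a homeodomain TF that, with SOX2 and OCT4, keeps embryonic stem cells in a state like that of the Epi, the lineage that forms the embryo proper. GATA6 is the zinc-finger TF that directs the PrE, the lineage next to the Epi in the blastocyst, and the PrE goes on to express GATA4 and SOX17. GATA6 and NANOG restrain each other during this choice, and both bind CREs, the promoters and enhancers that control genes.

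The sequences below show the classes at their strongest sites. Each is a stretch of the plus strand of GRCm38.p6 from the RefSeq genome, reaching 50 bases to either side of a summit, taken from the region's peak of lowest q-value. Capitals mark exact matches, on either strand, to 6 short words: the GATA word AGATAA, the SOX word ACAATG, the octamer word ATGCAAAT, the homeodomain word TAATGG, the ESRRB and NR5A word AAGGTCA and the KLF word CACACCC. Many windows hold none of them. The kept regions with the highest mean 8 h fold, where fold is the enrichment that the peak caller gave the summit over its local background, had these summits:
Prf1, chr10:61307268-61307368: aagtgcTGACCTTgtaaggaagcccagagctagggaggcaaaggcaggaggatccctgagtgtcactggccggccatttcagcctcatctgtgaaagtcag
Rbpj, chr5:53467080-53467180: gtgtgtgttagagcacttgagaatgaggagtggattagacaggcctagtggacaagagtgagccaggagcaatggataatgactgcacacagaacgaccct
Mrps23, chr11:88202208-88202308: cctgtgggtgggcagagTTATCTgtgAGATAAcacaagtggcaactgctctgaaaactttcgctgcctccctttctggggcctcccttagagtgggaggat

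The lost regions with the highest mean 4 h fold had these summits:
Mpped2, chr2:106455986-106456086: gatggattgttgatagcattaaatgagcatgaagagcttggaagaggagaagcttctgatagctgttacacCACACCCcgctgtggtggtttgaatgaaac
Megf11, chr9:64651973-64652073: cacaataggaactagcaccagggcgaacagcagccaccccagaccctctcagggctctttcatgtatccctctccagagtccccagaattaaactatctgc
Scn3a, chr2:65437011-65437111: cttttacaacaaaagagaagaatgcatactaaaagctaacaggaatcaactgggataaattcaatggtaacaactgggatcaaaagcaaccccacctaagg

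The gained regions with the highest mean 8 h fold had these summits, the last 2 of which lie at promoters:
Hectd4, chr5:121333319-121333419: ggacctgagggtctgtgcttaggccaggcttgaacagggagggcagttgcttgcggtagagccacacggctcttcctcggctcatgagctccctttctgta
Catspere2, chr1:177983299-177983399: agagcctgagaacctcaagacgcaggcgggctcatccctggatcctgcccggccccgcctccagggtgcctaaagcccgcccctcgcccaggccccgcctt
Chpt1, chr10:88503984-88504084: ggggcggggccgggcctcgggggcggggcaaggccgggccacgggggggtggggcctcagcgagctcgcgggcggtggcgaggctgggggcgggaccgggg

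Kept regions near genes of signalling, Epi and matrix lists, described further below, had these summits:
Id3, chr4:136146962-136147062: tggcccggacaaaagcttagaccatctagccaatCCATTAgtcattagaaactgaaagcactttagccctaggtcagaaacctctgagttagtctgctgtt
Klf5, chr14:99275430-99275530: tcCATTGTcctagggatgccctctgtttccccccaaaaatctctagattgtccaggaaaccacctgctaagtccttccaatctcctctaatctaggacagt
Lefty2, chr1:180888754-180888854: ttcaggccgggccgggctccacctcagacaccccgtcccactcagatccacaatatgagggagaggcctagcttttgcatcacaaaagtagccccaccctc
Spry2, chr14:105900741-105900841: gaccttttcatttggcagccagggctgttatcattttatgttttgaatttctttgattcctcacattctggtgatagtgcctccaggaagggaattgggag
Tdgf1, chr9:110947370-110947470: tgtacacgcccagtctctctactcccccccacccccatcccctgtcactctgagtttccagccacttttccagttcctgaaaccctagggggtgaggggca
Lamc1, chr1:153376841-153376941: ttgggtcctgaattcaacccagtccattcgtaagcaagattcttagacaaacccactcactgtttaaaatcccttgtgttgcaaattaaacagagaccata

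For comparison, the lost regions near Nanog and Nodal had these summits:
Nanog, chr6:122702611-122702711: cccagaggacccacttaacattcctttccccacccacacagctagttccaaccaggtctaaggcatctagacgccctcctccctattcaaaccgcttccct
Nodal, chr10:61416148-61416248: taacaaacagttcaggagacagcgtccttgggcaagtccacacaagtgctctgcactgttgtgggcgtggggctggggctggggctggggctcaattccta

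Fewer NANOG peaks were called at 8 h than at 4 h in both replicates, and they were narrower. The 4 h lists held 14911 and 14528 peaks, and the 8 h lists 5510 and 2255. The mean difference was -2.06 on the log2 scale, -1.44 in replicate 1 and -2.69 in replicate 2. An exact permutation test of 2 lists against 2 gave p = 0.333, which is the smallest p this design allows. The background coverage that the caller used, which grows with library depth, was 0.865 and 0.935 fragments per bp in the 4 h lists and 1.11 and 1.3002 in the 8 h lists. By this measure both 8 h libraries had a higher background than both 4 h libraries. The value was inferred from the peak lists, not from read totals. Its support was least in 8 h replicate 1, where 8 of 30 pairs of fold and p-value shared it.

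Reproducibility was lower at 8 h than at 4 h. At 4 h, 46.8% of the peaks of replicate 1 and 47.7% of those of replicate 2 overlapped a peak of the other replicate. At 8 h these shares were 8.75% of 5510 peaks and 21.3% of 2255 peaks. More peaks of 8 h replicate 1 overlapped 4 h replicate 1 (1393) than overlapped 8 h replicate 2 (482), where the 4 h list is also the longer one. Of the peaks in 8 h replicate 1, 448 lay in kept regions, 34 in gained regions and 5028 in no region of both lists. In 8 h replicate 2 these numbers were 446, 34 and 1775. Peaks in no region of both lists had a median fold of 4.62 and 4.78 at 8 h.

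**Figure D1:**
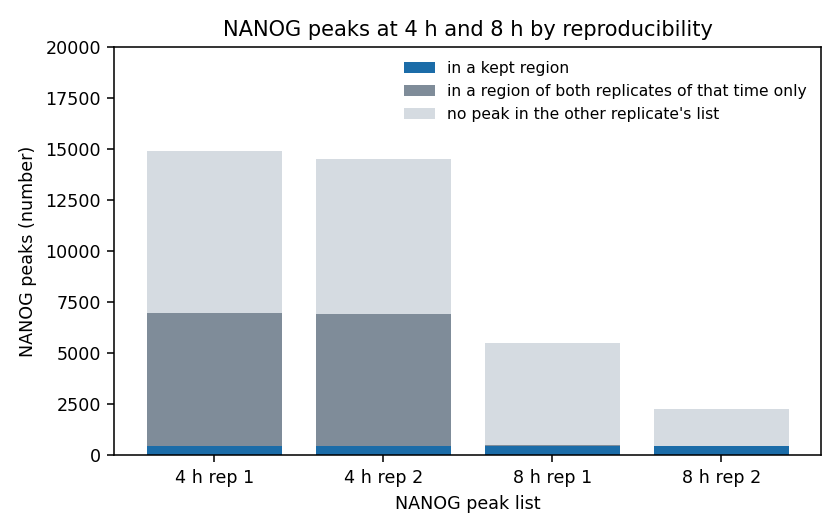
Number of NANOG peaks (y axis) in each of the 4 lists (x axis), split into peaks in kept regions, peaks in regions of both replicates of that time point only, and peaks without a partner in the other replicate. The blue base, 444 to 448 peaks, is nearly equal in all 4 lists, while peaks without a partner make up 91.3% and 78.7% of the 8 h lists and 53.2% and 52.3% of the 4 h lists.

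Over all 8 NANOG lists, the median peak width was 277 and 271 bp at 0 h, 242 and 266 bp at 2 h, 219 and 243 bp at 4 h, and 147 and 168 bp at 8 h. Both 8 h values lay below all others. The spread of width across the 4 time points exceeded that within them (F = 25.6, exact permutation test, two-sided, p = 0.0190, adjusted p = 0.0381 over 6 such tests). The share of peaks with the GATA word within 100 bp of the summit was 11.02% and 10.3% at 0 h, 21.02% and 21.2% at 2 h, 29.6% and 27.8% at 4 h, and 16.0% and 19.6% at 8 h. The 4 h lists were highest and the 0 h lists lowest (F = 54.3, p = 0.00952 by the exact permutation test, below which this design cannot go, adjusted p = 0.0286). Most 8 h peaks, however, had no partner in the other replicate. Among reproducible regions, the word was in 37.1% at 4 h and in 34.0% at 8 h. Of all windows of the same length tiled along the genome, 13.4% held the word.

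The share of NANOG peaks at a SOX2 peak of the same time was 69.3% and 68.5% at 4 h and 25.9% and 47.2% at 8 h, and it was between 51.9% and 77.9% in the 0 h and 2 h lists. The SOX2 lists held 45340 and 24617 peaks at 4 h and 14055 and 11540 at 8 h. The part of these numbers in the shares was not tested. Among reproducible NANOG regions, SOX2 of the same time was in 91.5% and 80.9% at 4 h, by its 2 lists. At 8 h it was in 88.2% and 87.1%. Time points differed with all lists in the test (F = 6.77, exact permutation p = 0.00952, adjusted p = 0.0286). This call did not hold without any 1 of 3 lists: the p was 0.0762 without 4 h replicate 1, 0.0667 without 4 h replicate 2 and 0.152 without 8 h replicate 1. Restricting the lists to −log10 q values of 5 or more also ended it (exact permutation p = 0.210). The share of peaks at a reproducible GATA6 2 h region was 74.5% in both 4 h lists and 32.9% and 57.1% in the 8 h lists, and this measure did not pass the test over time (F = 2.99, exact permutation p = 0.114, adjusted p = 0.137). Of the reproducible NANOG regions, 97.3% at 4 h and 95.8% at 8 h held a GATA6 2 h region. Promoter peaks, with a summit within 1 kb of a protein-coding TSS, made up 12.3% and 13.1% of the 4 h lists and 10.9% and 15.7% of the 8 h lists, so the groups overlapped. The median distance to the TSS was 19542 and 18961 bp at 4 h and 19323 and 16812 bp at 8 h. Over the 4 time points, the exact permutation p was 0.210 for promoter share (adjusted p = 0.210) and 0.114 for distance (adjusted p = 0.137). These tests are not of 4 h against 8 h alone.

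These shares changed with the number of peaks used. With the 2255 peaks of lowest q-value in every list, 99.1% and 99.2% of 4 h peaks and 49.4% and 57.1% of 8 h peaks lay at a GATA6 2 h region, and the exact permutation p over time was 0.00952. In the same lists 6.16% and 6.34% of 4 h peaks and 12.5% and 15.7% of 8 h peaks were at promoters. The exact permutation p for promoter share, over the 4 time points and not for this pair alone, was 0.00952. The GATA word was then in 42.4% and 39.4% of 4 h peaks and in 20.8% and 19.6% of 8 h peaks. SOX2 peaks of the same time were at 96.9% and 97.0% of 4 h peaks and at 41.8% and 47.2% of 8 h peaks. For SOX2 the exact permutation p over the 4 time points was 0.00952. These 2255 peaks are all of 8 h replicate 2 and 40.9% of 8 h replicate 1, but only the top 15.1% and 15.5% of the 4 h lists, so strong 4 h peaks stand here against 8 h peaks of all strengths.

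Of the 6910 NANOG regions at 4 h, 6.37% were kept and 93.6% lost. Of the lost regions, 5167 had no peak in either 8 h list. A peak of replicate 1 only was present in 780 of them, a peak of replicate 2 only in 508, and peaks of both lists that did not overlap each other in 15. Counted with either 8 h list, 1743 of the 4 h regions still held a NANOG peak. The kept share was 17.9% with 8 h replicate 1 alone and 13.9% with replicate 2 alone, and 18.6% of the 4 h regions were counted as lost with a peak in 1 of the 8 h lists.

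Kept regions had higher NANOG folds at 4 h than lost regions, and wider peaks. In 4 h replicate 1 the median fold was 11.6 in kept and 6.64 in lost regions, and in replicate 2 it was 10.7 and 6.43. Quartiles of the mean 4 h fold were 8.73 and 14.2 in kept regions and 5.42 and 8.25 in lost ones. The median of the mean width was 506 bp in kept and 310.5 bp in lost regions. Kept peaks ranked at the median percentiles of 95.1 and 94.3 of the 4 h lists by fold, and lost ones at 69.8 and 70.2. The kept share rose over deciles of the mean 4 h fold, from 0.579% (95% Wilson interval 0.225 to 1.48) of the 691 regions in the weakest decile to 2.75% in the sixth, 13.2% in the ninth and 32.6% (29.2 to 36.1) in the strongest. Of the strongest decile, 55.4% had a peak in 8 h replicate 1 and 48.0% in replicate 2, and 29.8% had none in either. Intervals of this kind cover counting error over regions only, since regions are not replicates.

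**Figure D2:**
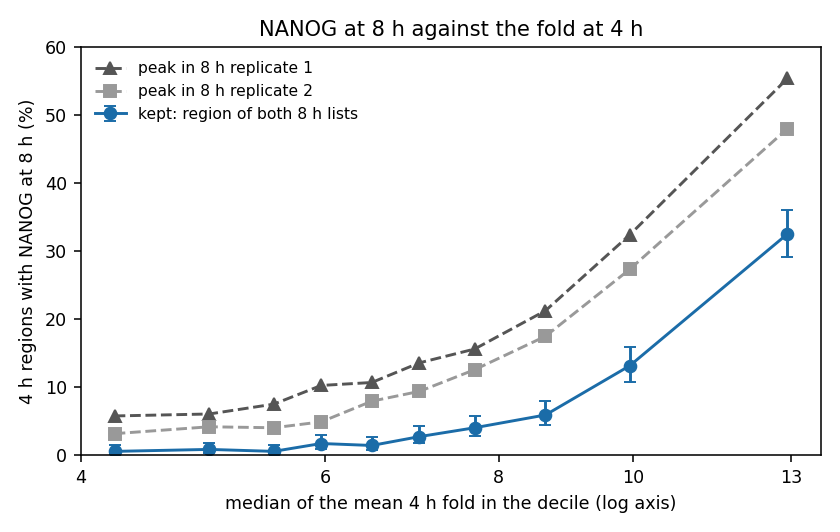
Share of 4 h NANOG regions with NANOG at 8 h (y axis) in 10 deciles of the mean 4 h fold (x axis, log scale, at the decile's median), for regions of both 8 h lists with 95% Wilson intervals and for each 8 h list alone. The 3 lines rise together from 0.579%, 5.79% and 3.18% in the weakest decile to 32.6%, 55.4% and 48.0% in the strongest.

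Kept regions were weaker and narrower at 8 h than they had been. The median fold in kept regions went from 11.6 and 10.7 at 4 h to 5.68 and 5.65 at 8 h, and the median peak width from 469 and 514.5 bp to 233 and 238 bp. The mean 8 h fold was 0.505 times the mean 4 h fold in the median region, with quartiles of 0.418 and 0.635. In 380 of 440 kept regions both 8 h folds lay below both 4 h folds, and in 3 both lay above. In 366 both 8 h peaks were narrower than both 4 h peaks, and in 2 both were wider. Fold is relative to the background of each library, which was higher at 8 h, and its part in the lower folds was not tested.

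Most kept regions had NANOG before 4 h. At 2 h, 99.3% and 98.9% of kept regions held a NANOG peak, with a median fold of 20.96 and 14.4, the highest of the 4 time points in both replicates. For lost regions the shares at 2 h were 94.1% and 85.8%, with a median fold of 11.7 and 8.47. At 0 h, 59.3% and 66.8% of kept regions and 39.3% and 48.4% of lost regions held a peak. By reproducible regions, 253 kept regions had NANOG at both 0 h and 2 h, 181 at 2 h but not 0 h, and 6 at neither. The kept share was 9.63% (95% Wilson interval 8.56 to 10.8) of the 2626 4 h regions with a region at 0 h and 2 h, 5.51% (4.78 to 6.35) of the 3284 with one at 2 h only, and 0.616% (0.283 to 1.34) of the 974 with neither. Their median 4 h folds were 7.38, 6.59 and 5.80, in the same order.

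Kept and lost regions lay in similar places. Promoters, within 1 kb of a protein-coding TSS, made up 46 kept regions (10.5%, 95% Wilson interval 7.93 to 13.7) and 652 lost regions (10.08%, 9.37 to 10.8). Introns held 38.2% and 36.3%, intergenic sequence 49.8% and 52.2%, and exons 1.59% and 1.41%. The median distance to the TSS was 20895 bp in kept and 21992 bp in lost regions. The likeness in promoter share held only without regard to fold. In 5 bins of equal size by mean 4 h fold, promoters were 40.0% of 10 kept and 18.5% of lost regions in the weakest bin, 50.0% of 16 and 12.6% in the second, 34.5% of 29 and 8.20% in the third, 17.4% of 69 and 5.94% in the fourth, and 3.797% of 316 and 3.47% in the strongest. Weighted by kept regions, the difference within bins was 5.61 percentage points, against 0.377 over all. Only 10, 16 and 29 kept regions stand behind the 3 weakest bins.

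**Figure D3:**
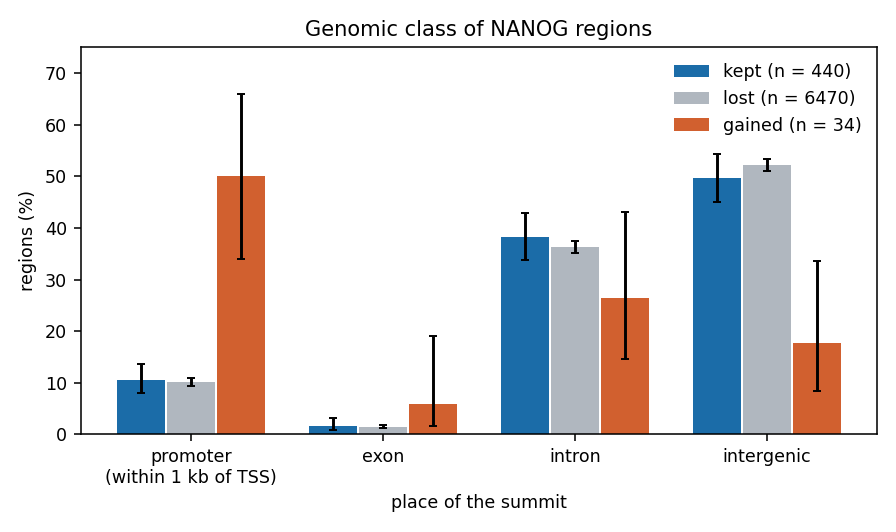
Share of kept, lost and gained NANOG regions (y axis, with 95% Wilson intervals) by the place of the summit among protein-coding genes (x axis). The bars of 440 kept and 6470 lost regions are close in every class, while promoters hold 50.0% of the 34 gained regions against 10.5% of the kept ones. In the 3 weakest bins of 4 h fold, promoters also hold 40.0%, 50.0% and 34.5% of 10, 16 and 29 kept regions.

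The GATA word lay within 100 bp of the summit in 38.2% of kept and 37.0% of lost regions, against 13.4% of tiled windows. This difference of 1.13 points was 8.30 without 4 h replicate 1, 8.59 without 4 h replicate 2 and 8.57 with regions of either list, and turned to -1.82 without 8 h replicate 1, -3.79 with the stricter q-value and -5.30 with equal lists, so no direction is drawn from it. The SOX word was in 21.4% and 21.1% (12.7% of windows), the homeodomain word in 11.8% and 10.6% (8.73%), the KLF word in 10.0% and 10.6% (3.19%), the ESRRB and NR5A word in 11.1% and 8.25% (3.73%) and the octamer word in 2.50% and 4.03% (1.74%). The Wilson intervals of kept and lost regions overlapped for each of the 6 words. None of the words was found in 32.7% of kept and 35.0% of lost regions. A matching word is a description of the sequence, not a bound site.

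Other binding did differ between the classes. Overlap was counted at 1 bp over the whole region, and kept regions had wider peaks (median 506 against 310.5 bp). They were wider within bins of 4 h fold as well, with 535 against 430 bp in the strongest bin. The part of width in the differences below was not tested. SOX2 at 8 h had a peak in 92.0% and 91.8% of kept regions, by its 2 lists, and in 60.5% and 59.1% of lost regions. With either list, the shares were 95.9% and 71.3%, a difference of 24.6 percentage points, and 13.9 points within bins of 4 h fold. It was 49.8 without 4 h replicate 1, 49.1 without 4 h replicate 2 and 10.6 with equal lists, higher in kept regions each time. Of the 5033 NANOG regions with SOX2 at 8 h, 8.38% (95% Wilson interval 7.65 to 9.18) were kept, and of the 1877 without it 0.959% (0.607 to 1.51). SOX2 was already more frequent at kept regions before induction, in 66.6% and 65.9% against 50.97% and 50.2% of lost regions at 0 h. At 4 h, SOX2 peaks were in 98.4% and 96.1% of kept and 91.1% and 79.9% of lost regions.

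Nearly all 4 h regions held GATA6 at 2 h. A reproducible GATA6 2 h region was present at 435 kept regions (98.9%) and 6291 lost regions (97.2%). The difference of 1.63 percentage points turned to -0.383 within bins of 4 h fold. It was 24.9 without 4 h replicate 1, 23.8 without 4 h replicate 2, 30.9 with regions of either list and 24.5 with same-numbered replicates, settings that take in 4 h peaks of 1 list. The 6 lists recorded for GATA6 at later times carry peak names of other time points: those recorded for 4, 8 and 48 h are named after 48, 4 and 8 h. In the lists recorded for 48 h, named after 8 h, GATA6 was at 95.9% of kept regions in both lists and at 77.9% and 79.5% of lost regions. In those recorded for 8 h, named after 4 h, the shares were 98.4% and 99.1% against 94.9% and 97.1%. In those recorded for 4 h, named after 48 h, they were 32.7% and 37.3% against 16.0% and 19.0%. The lists differed in length, with 79358 and 62683 peaks at 2 h and 5933 and 9767 in those recorded for 4 h. Those recorded for 8 h held 47894 and 54281 peaks, and those recorded for 48 h 28676 and 30234. The part of list length in these shares was not tested. Under either reading, each later GATA6 list overlapped kept regions, the wider class, more often than lost ones.

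PrE factors were also more frequent at kept regions, with the same limit from their width. SOX17 at 24 h had a peak in 68.4% and 77.7% of kept and in 44.9% and 53.4% of lost regions, a mean difference of 23.9 percentage points, and 24.7 within bins of 4 h fold. Without 4 h replicate 1 it was 37.3, and without 4 h replicate 2 it was 37.1. GATA4 at 24 h had a peak in 40.9% and 31.8% of kept and in 20.6% and 14.9% of lost regions, a difference of 18.6 points, and 19.097 within bins. The kept share was 9.74% (95% Wilson interval 8.73 to 10.8) of the 3040 regions with SOX17 in both lists and 3.72% (3.17 to 4.36) of the 3870 others. The median 4 h NANOG fold was 6.73 in each of these groups. For GATA4 the kept share was 13.5% (11.5 to 15.9) of 960 regions and 5.21% (4.67 to 5.80) of 5950, with median NANOG folds of 6.83 and 6.71. These SOX17 and GATA4 comparisons were chosen after the data were seen.

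**Figure D4:**
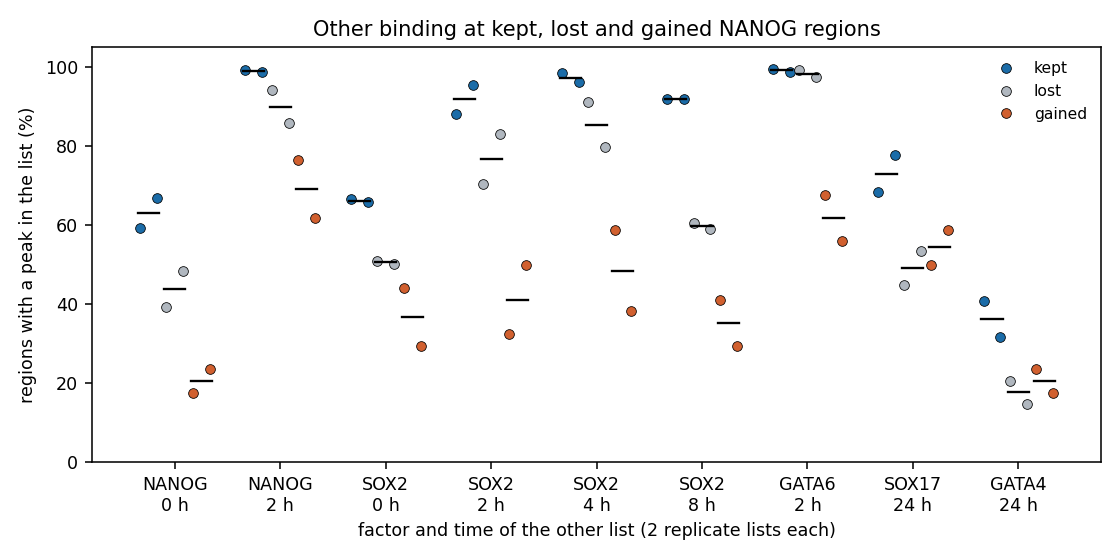
Share of kept, lost and gained NANOG regions with a peak of another list (y axis), by factor and time (x axis), where each point is 1 of 2 replicate lists and each bar their mean. Both values of kept regions lie above both of lost regions in every group except GATA6 at 2 h, where the 4 values interleave between 97.4% and 99.5%.

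Gained regions, as defined by both 8 h lists, were often at promoters. Of the 34, 17 (50.0%, 95% Wilson interval 34.1 to 65.9) lay at promoters, with summits 29 to 537 bp from the TSS. This share was 18.2% without 8 h replicate 1 and 11.1% without 8 h replicate 2, where 1 list alone defined the 8 h regions, 29.2% with equal lists and 13.4% with same-numbered replicates, so it holds for the 34 regions of both lists only. Their mean 8 h fold had a median of 4.99 and their width a median of 190 bp. GC content within 100 bp of the summit had a median of 58.5%, against 45.3% in kept and 44.8% in lost regions. The GATA word was present in 2 of 34 (5.88%, 1.63 to 19.09), and 23 held none of the 6 words. Promoters were more frequent here than in kept or lost regions, and their part in the GC and word values was not tested. SOX2 8 h peaks of either list were at 15, and GATA6 2 h regions at 19. They made up 7.17% of the 474 regions at 8 h, and this share was 56.8% without 8 h replicate 1, 77.2% without 8 h replicate 2, 69.2% with regions of either list and 63.8% with same-numbered replicates. Of the 34, 23 had a peak in 1 of the 4 h lists and 11 had none in either.

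Among the gained promoters, named in part after their values were seen, were those of Chpt1, which makes choline phospholipids, Apaf1, the scaffold of the apoptosome, Usp3, a deubiquitinase, Nop58, a core protein of box C/D snoRNPs, Dgcr2, Celsr1, a planar cell polarity cadherin, and Vps4a, an ATPase of the ESCRT pathway. At Chpt1 (chr10:88503963-88504132) the 8 h folds were 7.52 and 6.45, 1 of the 4 h lists had a peak with a fold of 4.53, and the summit was 35 bp upstream of the TSS. At Catspere2 (chr1:177983303-177983473) the 8 h folds were 7.12 and 6.96, and 4 h replicate 2 had a fold of 13.95 where replicate 1 had no peak. The Clybl promoter had 8 h folds of 6.17 and 6.56 and a 4 h fold of 5.90 in replicate 1 only. The Fam214b promoter had 6.33 and 5.55 at 8 h and 6.92 in 4 h replicate 2 only. Each of these 4 promoters thus had a peak in 1 of the 4 h lists, at a higher fold than either 8 h value at Catspere2 and Fam214b and at a lower one at Chpt1 and Clybl. Away from promoters, Heg1 (6.64 and 6.09 at 8 h, 5.90 in 4 h replicate 1), Nedd9 (5.84 and 6.09, 12.3 in 4 h replicate 1) and Efna5 (6.64 and 5.22, 7.75 in 4 h replicate 2) were the next strongest.

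Some regions stood apart from the rest. The strongest gained region, in an intron near Hectd4 (chr5:121333322-121333459), had folds of 28.3 and 86.7 at 8 h, 12.1 in 0 h replicate 2 and 51.8 in 2 h replicate 1, each with the same width of 138 bp, and no peak in the other 4 lists. The strongest kept region, 7517 bp downstream of the TSS of Prf1 (chr10:61307232-61307403), had folds of 14.9 and 36.3 at 4 h and 16.5 and 38.5 at 8 h, with a width of 172 bp in all 4 lists and no peak in any GATA6, SOX2, GATA4 or SOX17 list examined. A further 5 gained regions and 1 kept region lay within 8 kb near Def8 on chromosome 8 (between 123426293 and 123434107). The 8 h folds of the gained ones were 1.29 to 1.74, and the 4 h folds of the kept one 1.29 and 1.37. All but 1 of the NANOG peaks with a fold under 2 were in this stretch. Without these peaks there were 29 gained regions, 58.6% of them at promoters, and 439 kept regions. On mitochondrial DNA, where kept regions were up to 6561 bp wide, 2 regions counted as kept, with 4 h folds of 7.96 and 8.50 (nearest gene mt-Nd2) and 11.95 and 11.1 (mt-Nd5). All 30 lists of the 5 TFs examined had mitochondrial peaks, those of GATA6 at 0 h included. Without these regions 438 of 6908 (6.34%) were kept. These regions were singled out after their values were seen.

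The other kept regions with the highest 8 h fold mostly had NANOG at every time. At Rbpj, the DNA-binding effector of Notch signalling, a region 978 bp downstream of a TSS (chr5:53466498-53467904) had folds of 34.2 and 32.7 at 0 h, 76.5 and 47.7 at 2 h, 29.5 and 32.6 at 4 h, and 12.8 and 9.56 at 8 h. Rbpj had 3 kept regions within 50 kb of its TSS, of 5 at 4 h, the most of any gene. Upstream of Mrps23, which encodes a mitochondrial ribosomal protein, the folds were 30.5 and 34.0 at 4 h, against 8.83 and 13.1 at 8 h. Its summit window, shown above, holds the GATA word on both strands 3 bases apart. At Hk2, a hexokinase, neither 0 h list had a peak, and the folds were 17.4 and 22.0 at 4 h, against 12.1 and 9.21 at 8 h. Nt5e, which encodes the ectonucleotidase CD73, had 20.99 and 21.4 at 4 h and 9.47 and 10.6 at 8 h in an intron. Fat1, an atypical cadherin, had 15.5 and 20.7 and then 7.96 and 12.0, the Prrt3 promoter 12.3 and 15.0 and then 9.97 and 10.4, and BC052040 19.3 and 12.8 and then 10.3 and 9.56. The 8 h values lay below the 4 h values in all of these.

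The strongest lost regions mostly kept a peak in 1 list. The region near Mpped2 (chr2:106455703-106456384) had folds of 32.7 and 19.6 at 4 h, none in 8 h replicate 1 and 6.96 in replicate 2. In an intron near Megf11 they were 28.1 and 22.7 at 4 h and 4.45 in 8 h replicate 1 only. Upstream of Sfrp2, a secreted WNT antagonist, they were 23.1 and 18.1 at 4 h and 9.02 in 8 h replicate 1 only. Near Bcl2l15 the value in 8 h replicate 2 was 11.7, above the 8 h median of kept regions, with no peak in replicate 1. Scn3a, Sik2, a salt-inducible kinase, and Ptger2, a prostaglandin receptor, likewise had a peak in 8 h replicate 2 only, with folds of 6.52, 7.83 and 6.15. Near Pfkp, a phosphofructokinase, both 8 h lists had a peak, 5.08 and 7.39, which did not overlap each other. All 8 therefore had NANOG in at least 1 list at 8 h, at a lower fold than at 4 h.

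Genes were grouped by lists of regulators of the PrE, the Epi and the trophectoderm, of PrE receptors and matrix, and of signalling pathways, and a region was assigned to the nearest protein-coding TSS within 50 kb. Of 4648 such regions at 4 h, 296 (6.37%) were kept, near 280 genes, which equals the share of all 4 h regions, 6.37%. Over all short lists, 8 of 87 regions were kept (9.20%, 95% Wilson interval 4.73 to 17.1), and this interval holds the background share. None of the 34 gained regions was near a gene of the short lists. These lists hold only 82 of 21924 protein-coding genes, and only 32 gained regions were assigned to any gene. No result is therefore drawn from this count. The lists are also not complete, since a gained region lay 6845 bp upstream of the TSS of Bmp6, which they leave out.

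Of the NODAL and BMP list, 7 of 10 genes had a 4 h region, and 3 of 9 regions were kept (33.3%, 12.1 to 64.6, against 6.37% of regions near any gene), near Id3, Lefty2 and Tdgf1. This interval lies above the background share, on 9 regions of a list chosen with earlier results known, so it is given as a description. These 9 regions had a median 4 h fold of 9.98, against 6.59 for regions near any gene. The kept share rose with fold, and the part of fold in this share was not tested. Id3 is a target of BMP signalling that blocks bHLH TFs, Lefty2 is a secreted NODAL inhibitor and Tdgf1 (Cripto) the NODAL coreceptor. At Id3 the NANOG folds went from 17.2 and 16.6 to 11.1 and 6.21. At Lefty2 they were 7.67 and 10.6 and then 4.51 and 5.80, and at Tdgf1 8.58 and 11.4 and then 5.08 and 4.35. Each of the 3 had NANOG in both 0 h lists as well. The other 6 regions of the list were lost, among them those near Nodal, with 10.0 and 14.2 at 4 h and 4.71 in 8 h replicate 2 only, and Bmp4, with 15.0 and 11.9 at 4 h and none at 8 h.

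Of the FGF and ERK list, 8 of 11 genes had a 4 h region, and 2 of 18 regions were kept (11.1%, 3.10 to 32.8, which holds the background share), near Spry2 and Spry4, inhibitors that the pathway itself induces. At Spry2 the folds were 8.31 and 11.3 at 4 h, against 6.93 and 3.35 at 8 h, and at Spry4 12.9 and 16.0 and then 4.75 and 4.35. Lost were the region near Fgf4, the ligand that Epi cells secrete, with 6.28 and 4.26 at 4 h, all 4 near its receptor gene Fgfr2 and all 5 near Etv5, an ETS TF. Some of these still had a peak in 1 of the 8 h lists. Near Fgfr2 such peaks had folds of 6.04 and 4.78, both in replicate 2. Near Etv5 they had 5.69 in replicate 1 and 5.00 in replicate 2. The other lost regions near these genes, and the Fgf4 region, had no peak at 8 h. The Fgf4 region had no NANOG peak at 0 h or 2 h in any list.

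Of the Epi regulators, 10 of 14 had a 4 h region, and 1 of 20 regions was kept (5.00%, 0.888 to 23.6), 23211 bp upstream of the TSS of Klf5, a Krüppel-like TF of naive cells. Its folds were 15.1 and 12.2 at 4 h, against 7.12 and 6.85 at 8 h, with 13.9 and 10.101 at 2 h and no peak at 0 h. The other 4 regions near Klf5 were lost, and only that with 5.39 in 8 h replicate 1 had a peak at 8 h. At Nanog itself, a region 4828 bp upstream of the TSS had 13.9 and 23.5 at 0 h, 14.9 and 9.16 at 4 h, and 5.35 at 8 h in replicate 2 only. Near Sox2 the 4 h folds were 4.83 and 7.75, near Pou5f1, which encodes OCT4, 7.32 and 4.41, and near Prdm14 9.65 and 8.27, with no peak at 8 h in either list. All 3 regions near Esrrb, which encodes a naive nuclear receptor, were lost, with 4 h means of 5.88, 11.2 and 9.58. The first of them still had a fold of 4.27 in 8 h replicate 1, and the others had no peak at 8 h. The limit of 50 kb leaves out kept regions farther away. One lay 110949 bp downstream of the TSS of Sox2 (chr3:34761061-34761634), with folds of 10.7 and 6.44 at 4 h and 3.58 and 8.70 at 8 h, so the groups overlapped there. For Tbx3, a T-box TF, kept regions lay 90630 and 85671 bp upstream, the first with 9.52 and 9.91 at 4 h and 2.62 and 3.94 at 8 h. With no limit on distance, 4 of 45 Epi regions (8.89%, 3.51 to 20.7) and 14 of 137 regions of all short lists (10.2%, 6.19 to 16.4) were kept, including 1 more near Spry2 and 2 near Gata3.

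Of the PrE regulators, 4 of 8 had a 4 h region, and 1 of 10 regions was kept (10.0%, 1.79 to 40.4), 47659 bp upstream of the TSS of Gata6. There NANOG had 9.98 and 6.10 at 4 h and 4.09 and 4.31 at 8 h, and no peak at 0 h. The 3 regions near Gata4 and the 4 near Pdgfra, the receptor that marks the PrE, were lost. Of these only a Pdgfra region, with 3.59 in 8 h replicate 2, had a peak at 8 h. Of 19 regions near PrE receptor and matrix genes, 1 was kept (5.26%, 0.935 to 24.6), 44105 bp upstream of the TSS of Lamc1, which encodes a laminin chain of the basement membrane. Its folds were 17.04 and 13.2 at 4 h, against 8.93 and 4.78 at 8 h, and the other 6 regions near Lamc1 were lost. Among the lost ones only those with 5.43 in 8 h replicate 2 and 3.33 in 8 h replicate 1 had a peak at 8 h. None was kept of the 2 WNT, 9 trophectoderm and 4 control regions, the last near Neurog1, Olig2 and Ptprc. Counts this small allow shares up to 65.8%, 29.9% and 49.0% by the Wilson interval. Of the longer lists of genes that mark lineages in the embryo, taken from the study, 18 of 184 Epi regions (9.78%, 6.28 to 14.9) and 16 of 259 PrE regions (6.18%, 3.84 to 9.80) were kept. Both intervals hold the background of 6.37%. Of the 32 gained regions assigned to any gene, 2 were near genes of this PrE list and none near genes of this Epi list. The PrE list covers 570 of the 21924 protein-coding genes.

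**Figure D5:**
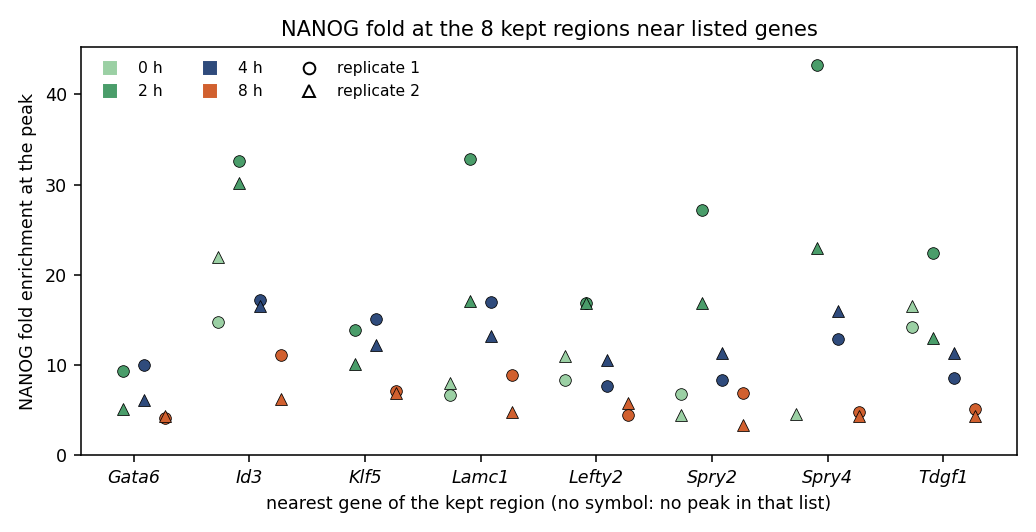
NANOG fold enrichment (y axis) at the 8 kept regions near genes of the short lists (x axis), for each of the 8 NANOG lists, with colour for time and shape for replicate; a list without a peak has no symbol. In all 8 both 8 h symbols lie below both 4 h symbols, and all but Klf5 and Gata6 have their highest value at 2 h.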

How the data were processed

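According to the methods of the study, paired-end CUT&RUN reads were aligned by the authors to the mouse genome (mm10, GRCm38) with Bowtie2 and processed with SAMtools and Picard, duplicates were kept, and narrow peaks were called with MACS for each library. The deposited lists hold the fold enrichment (a ratio), −log10 p-value and −log10 q-value of each peak, and a score derived from the q-value, which was not used. Read totals are not in the lists, so depth was taken from the background coverage at which the most frequent 30 combinations of fold and p-value give whole pileups within 0.2%; 8 to 18 of the 30 pairs shared it in the NANOG lists.

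Groups and replicate numbers came from sample titles. Regions, overlaps (1 bp), distances to GENCODE vM21 protein-coding TSS and motif words within 100 bp of summits were computed in Python with numpy and scipy. All peaks used lay inside the GRCm38.p6 chromosome lengths. The 6 measures over time were compared on 8 lists by exact permutation, two-sided (2520 arrangements) with Benjamini-Hochberg adjustment. Named regions were the 8 strongest of each class, and named genes all listed genes nearest to a region within 50 kb. Other settings tried were stricter overlap, −log10 q of at least 5, equal list length, the union of lists, each list left out, same-numbered replicates and bins of fold. Scripts were tested on simulated lists. Members, lists and tests were chosen with earlier results of these data known. Samples other than those of NANOG, SOX2, GATA6, GATA4 and SOX17 were not analysed here.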

Additional observations from a re-analysis of the deposited data

How the results depend on the processing

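Values are given for the settings that moved them, and the cause of each move was not tested. The kept share (6.37%) became 2.74% with only peaks of −log10 q of 5 or more, 20.0% with 2255 peaks in every list and 9.84% with regions of either list, and ranged from 3.04% to 17.9% with a list left out. The gained share (7.17%) became 30.3% with equal lists and 69.2% with either list, and ranged from 4.43% to 77.2%. Kept minus lost, in percentage points, for the stricter q-value, equal lists, either list and bins of fold, in that order, was -0.67, -0.38, 30.9 and -0.38 at GATA6 2 h regions, 16.6, 10.6, 49.3 and 13.9 at SOX2 8 h peaks, and -3.79, -5.30, 8.57 and -3.01 for the GATA word. With a list left out these ranged from 2.01 to 24.9, from 22.4 to 49.8 and from -1.82 to 8.59. For SOX17 the first 3 settings gave 19.0, 15.1 and 34.6 (19.2 to 37.3 with a list left out). For GATA4 all 4 gave 12.3, 10.2, 17.7 and 19.097 (12.9 to 25.1). The promoter difference was 2.22 with equal lists, 2.99 with either list and 5.61 within bins, and -1.59, -0.58 and -0.074 without 4 h replicate 1, 4 h replicate 2 and 8 h replicate 2 (-1.59 to 2.51 in all). The ratio of kept to lost fold was 1.198 with equal lists and 1.62 with either list (1.42 to 2.10), and that of width 1.45, 1.21, 1.80 and 1.22 (1.41 to 2.14). With an overlap of 50% of the shorter interval, SOX2 gave 23.6, GATA4 17.5, width 1.58 and gained promoters 45.5%. The gained promoter share (50.0%) was 33.3% with the stricter q-value, 29.2% with equal lists, 10.4% with either list and 58.6% without folds under 2, and ranged from 11.1% to 48.0%.

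Over time, the exact permutation p for promoter share was 0.00952 with equal lists and with the stricter q-value, and for distance 0.0476 and 0.00952. For GATA6 it was 0.00952 with equal lists, and for SOX2 0.210 with the stricter q-value. With a list left out, p ranged from 0.00952 to 0.0476 for width, 0.00952 to 0.305 for promoter share, 0.0286 to 0.219 for distance, 0.0476 to 0.324 for GATA6 and 0.00952 to 0.152 for SOX2, and was 0.00952 for the GATA word throughout. Without 8 h replicate 2, promoter share (p = 0.0286, exact) and distance (p = 0.0571, exact) also turned direction. The log2 ratio of peak number ranged from -2.71 to -1.42.

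Deviations of same-numbered replicates showed little correlation across 440 kept regions (r = -0.062). Regions are not replicates, so this value cannot show whether same-numbered lists share a culture. With same-numbered replicates as a block, the kept share was 8.22%, the gained share 63.8% and gained promoters 13.4%. Under this block the differences were 24.5 at GATA6, 44.7 at SOX2, 32.1 at SOX17, 17.7 at GATA4 and 6.67 for the GATA word, and the width ratio was 1.86. The blocked exact permutation p was 0.0417 for width, SOX2 and the GATA word, 0.208 for promoter share and 0.125 for distance and GATA6, and the log2 ratio of peak number stayed at -2.06. Each time point had 2 lists, and a list without a peak need not mean an unbound site.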
